A study of Mus musculus with 6 samples.

Results

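Non-receptor kinase genes were followed on both strands of the custom array. They were the genes with antisense probes whose description on the array held the word kinase and neither receptor nor inhibitor. This rule matched 27 genes, of which 1 was left aside, so that 26 of the 445 genes with antisense probes are described. They carried 118 of the 1750 antisense probes and 25 of the 404 sense probes that could be tied to the signal table, and 1 member, Map2k6, had no sense probe. An antisense probe is called an artificial antisense sequence (AFAS) probe: its 60 bases are the complement of a known mRNA, so that it binds copies of RNA read from the opposite strand. A gene had 3 to 7 of them, numbered here in the order of their names on the array.

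RNA came from 4 mammary tumors and 2 normal mammary glands of GRS mice (GRS/A in the study's methods), a strain in which the mouse mammary tumor virus (MMTV) gives rise to mammary tumors. Each sample was labelled with Cy3 from random primers and put on 1 array, and the comparison of tumor with normal gland asks in which genes each strand differed. The labels and the study's methods give no age, sex or number of mice for these samples, so the p-values measure only the spread between these samples, which may be technical. The extraction note in the labels names brain, whereas the sample names say mammary tumor and mammary gland.

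Protein kinases pass phosphate from ATP to other proteins and so switch them on or off. In the MAP kinase cascade each kinase activates the next, from the membrane to the nucleus; protein kinase C answers to calcium and lipid messengers; and the Src family of tyrosine kinases acts beneath cell surface receptors and is held inactive by the kinase Csk. Natural antisense transcripts are RNAs read from the strand opposite to a gene.

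The descriptions did not choose non-receptor kinases alone. Of the 26 genes, 22 are non-receptor kinases or their subunits, with Pik3r1 and Prkar1b as regulatory subunits. Flt1 and Tyro3 are receptor-type tyrosine kinases. Flt3l is a secreted ligand of a receptor kinase and Plau is urokinase, a secreted protease, so these 2 are no kinases. They are kept because the rule takes them.

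The sequences of 8 probes carry the points made below. A first pair is shown because its probes lie on the same strand and overlap, yet gave different signals; the capitals mark the 43 bases that both share.
Flt3l AFAS 2: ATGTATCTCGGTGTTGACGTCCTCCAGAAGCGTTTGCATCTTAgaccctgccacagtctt
Flt3l AFAS 4: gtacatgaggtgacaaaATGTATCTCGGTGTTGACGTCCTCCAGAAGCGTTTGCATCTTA

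A second pair shows a sense and an AFAS probe of Lck that read both strands of the same stretch. The capitals mark the 58 bases that are complementary.
Lck sense: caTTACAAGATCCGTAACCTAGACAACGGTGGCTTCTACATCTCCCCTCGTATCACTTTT
Lck AFAS 3: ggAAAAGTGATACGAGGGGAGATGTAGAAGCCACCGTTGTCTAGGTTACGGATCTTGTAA

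The remaining 4 are shown because AFAS probes of 1 gene differed between tumor and normal gland in opposite directions, lower in tumors for the first of each gene and higher for the second. They are in lower case throughout, since no stretch is singled out.
Blk AFAS 3: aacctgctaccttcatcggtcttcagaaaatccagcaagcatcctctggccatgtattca
Blk AFAS 2: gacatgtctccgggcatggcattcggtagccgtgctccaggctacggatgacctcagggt
Flt1 AFAS 5: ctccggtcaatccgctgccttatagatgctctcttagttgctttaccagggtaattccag
Flt1 AFAS 2: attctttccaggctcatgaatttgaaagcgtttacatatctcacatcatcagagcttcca

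Signals are the authors' scaled processed signals, in arbitrary units, and none was below 5, the floor set in the table. Over all probes, 0.789% to 12.9% of the signals of a tumor array were at that floor, against 24.4% and 31.1% in normal glands 1 and 2, so a probe at the floor in each normal gland has a tumor difference set by the floor. Differences below are mean log2 signal in tumors minus that in normal glands, with the standard error from limma, over 4 tumors and 2 normal glands. A probe was called when its adjusted p (limma, Benjamini-Hochberg over all probes of its strand) was under 0.05. No order of 6 arrays can give an exact permutation p below 0.133, so single probes rest on the limma fit over all probes. Among sense probes of marker genes, those of luminal epithelium summed to 37472 to 141508 in tumors and 14654 and 15580 in normal glands, with Krt18 (keratin 18) called at 3.33 and Gata3 at 2.55, 2 of 6 markers, while Esr1, the estrogen receptor, differed by −1.35 without a call. Lymphocyte markers summed to 8427 to 32793 in tumors and 4394 to 7757 in normal glands, with 0 of 4 called by limma and 1 higher at an unadjusted p under 0.05; Cd4 made up most of these sums (7659 to 31636 in tumors, 3901 and 7078 in normal glands), and Cd2 and Cd28 overlapped between the groups. Gria1, the brain marker with a sense probe, gave 46.65 to 172 in tumors and 96.3 and 145 in normal glands. None of the 13 fat cell markers looked for had a probe. Fewer cells of a type and less RNA per cell cannot be told apart in such bulk RNA. The part of cell composition in the results was not tested.

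On the sense strand, 4 of the 25 kinase probes (16.0%) rose in tumors, those of Csk, Map2k1, Plau and Prkca, where 14.4% of all sense probes rose. None fell by limma, where 0.248% of all sense probes fell. At an unadjusted p under 0.05, 9 of 25 (36.0%) were higher and 0 lower, beside 36.4% and 1.98% of all sense probes. The median difference was 0.91 for the kinase probes and 0.91 for all sense probes, and 20 of 25 lay above 0. The share of kinase sense probes higher in tumors was thus close to that of the whole array. The 4 calls became 0 without tumor 1, without tumor 4 or without either normal gland, and 2 without tumor 2. With the 75th percentile of each array set equal both medians were 0.51 and 1 call was made, and after quantile normalization the medians were 0.18 and 0.50 with 0 calls.

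**Figure D1:**
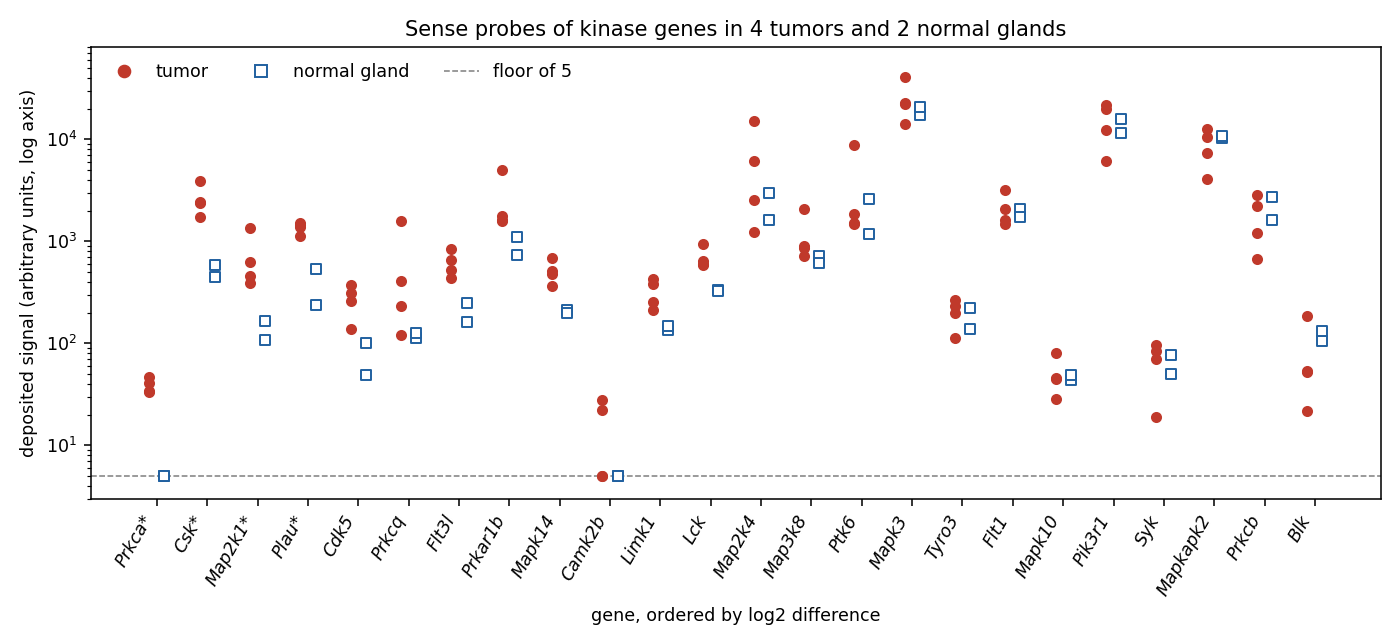
Signal of 24 kinase sense probes on each array (log axis, arbitrary units), ordered from the highest to the lowest log2 difference, with 1 point per array for 4 tumors (filled) and 2 normal glands (open squares); a star marks an adjusted p under 0.05. The 4 tumors lie above both normal glands for Csk, Map2k1, Plau and Prkca, among others, and overlap them for other probes drawn.

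Csk, the kinase that holds Src family members inactive, gave sense signals of 2373, 1734, 2449 and 3892 in tumors 1 to 4 and of 583 and 447 in normal glands 1 and 2. Every tumor lay above both normal glands. The difference was 2.29 ± 0.48 (SE), or 4.91-fold (adjusted p = 0.0299 by limma). Without normal gland 2 the adjusted p was 0.327 at a difference of 2.10, and with the 75th percentile of each array set equal it was 0.0773 at 1.90.

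Lck and Blk, Src family members that Csk acts on, did not pass the threshold on the sense strand. Lck, the kinase beneath the T cell receptor, gave 648, 583, 596 and 951 in tumors and 331 and 323 in normal glands. The groups did not overlap, and the difference of 1.06 ± 0.44 had an adjusted p of 0.118 by limma. Lck was itself among the lymphocyte markers above.

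Blk, a kinase of B cells, gave sense signals of 53.1, 187, 21.6 and 52.4 in tumors and of 106 and 132 in normal glands. Tumor 2 was the highest of all arrays and the other 3 tumors lay below both normal glands (difference −1.03 ± 0.81, adjusted p = 0.404 by limma).

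Syk and Ptk6, also cytoplasmic tyrosine kinases, were not called either. Syk, which acts beneath immune receptors, differed by −0.11 and Ptk6, an epithelial kinase, by 0.50. For Ptk6 tumor 1 stood at 8871 while the other tumors lay between 1487 and 1868 and the normal glands at 1181 and 2602. Myeloid markers, from cells in which Syk is also known to act, summed to 4242 to 14449 in tumors and 7307 and 8449 in normal glands, with 0 of 5 called by limma. They lay apart from each other: at an unadjusted p under 0.05 Csf1r was higher (1.51) and Csf3r lower (−2.15), and Cd14 differed by 2.66 without reaching that p.

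In the MAP kinase cascade 1 of 7 sense probes rose, beside 14.4% of all sense probes. It was that of Map2k1, also called MEK1, the kinase that activates ERK. It gave 633, 388, 455 and 1350 in tumors and 167 and 107 in normal glands. All tumors lay above both normal glands (2.22 ± 0.61, or 4.67-fold, adjusted p = 0.0483 by limma). This probe is described on the array only as an unnamed clone and was linked to Map2k1 by its place in the table. Its strand was not checked. The adjusted p was 0.394 without normal gland 2 and 0.0981 with the 75th percentile set equal.

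Mapk14, the stress kinase p38 alpha, gave 690, 478, 368 and 511 in tumors and 212 and 199.97 in normal glands. The groups did not overlap (1.28 ± 0.45, adjusted p = 0.0834 by limma). Mapk3, the ERK1 kinase that Map2k1 activates, had overlapping groups with a difference of 0.29, and the other probes of the cascade (Map2k4, Map3k8, Mapk10 and Mapkapk2) lay between −0.40 and 0.91 without a call.

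Among the kinases that answer to calcium, lipids or cyclic AMP, 1 of 5 sense probes rose, beside 14.4% of all sense probes. Prkca, protein kinase C alpha, gave 46.4, 33.0, 34.2 and 41.0 in tumors and stayed at the floor of 5 in each normal gland. The difference of 2.94 ± 0.42 (adjusted p = 0.0207 by limma) was set by that floor, and with a floor of 20 it was 0.94 without a call. The probe was linked to Prkca by its place in the table, and its strand was not checked.

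The related probes were not called. Prkcq, protein kinase C theta of T cells, gave 234, 409, 1601 and 121 in tumors and 114 and 127 in normal glands, so that tumor 4 lay between them (1.62, adjusted p = 0.257 by limma). Prkar1b, a regulatory subunit of protein kinase A, gave 1780, 5062, 1636 and 1593 in tumors and 1093 and 736 in normal glands, without overlap (1.30, adjusted p = 0.161 by limma). Camk2b, a calcium and calmodulin kinase, stayed at the floor in each normal gland and in 2 tumors, and Prkcb, protein kinase C beta, differed by −0.49.

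Plau, the protease urokinase, rose in tumors. Its sense probe gave 1502, 1446, 1118 and 1371 in tumors and 538 and 238 in normal glands. The groups did not overlap (1.92 ± 0.49, or 3.78-fold, adjusted p = 0.0414 by limma). The adjusted p was 0.399 without normal gland 2 and 0.0978 with the 75th percentile set equal. Flt3l, the ligand of the Flt3 receptor, gave 520, 436, 660 and 835 in tumors and 249 and 163 in normal glands, again without overlap (1.56 ± 0.48, adjusted p = 0.0583 by limma).

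Cdk5, a cyclin-dependent kinase known from neurons, gave 308, 259, 138 and 369 in tumors and 101 and 49.3 in normal glands. No tumor overlapped a normal gland (1.84 ± 0.57, adjusted p = 0.0603 by limma). Limk1, a kinase that acts on the actin regulator cofilin, gave 256, 210, 382 and 431 in tumors and 135 and 147 in normal glands, without overlap (1.13 ± 0.48, adjusted p = 0.126 by limma). Pik3r1, the regulatory subunit of PI3 kinase, had overlapping groups and a difference of −0.01. The receptor-type kinases Flt1, which binds the growth factor VEGF, and Tyro3 differed by 0.07 and 0.15, and both signs turned with the 75th percentile of each array set equal (−0.33 and −0.25).

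On the antisense strand, 0 of the 118 kinase AFAS probes passed the adjusted threshold in either direction by limma, where 0.457% of all AFAS probes were called higher and 0% lower. At an unadjusted p under 0.05, 22 (18.6%) were higher in tumors and 6 (5.08%) lower, beside 13.0% and 3.26% of all AFAS probes. The 22 higher probes came from 14 genes. Both normal glands were at the floor for 9 of them, 1 normal gland for 3 and neither for 10. The median difference was 0.47 over the kinase AFAS probes and 0.44 over all AFAS probes. It was −0.11 and −0.12 after quantile normalization between arrays.

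The AFAS probes of 1 gene seldom lay on the same side of 0. In 23 of the 26 genes some AFAS probes were above 0 and others below it. Csk was an exception, with all 4 AFAS probes below 0, and so were Prkar1b and Prkcq, with all above 0. In 4 genes, Blk, Flt1, Map2k1 and Map2k4, probes reached an unadjusted p under 0.05 in both directions. Such genes were not counted over the whole array. Above 0 lay 66.1% of the kinase AFAS probes and 68.6% of all AFAS probes. Signs of differences near 0 or set by the floor are included. Both signs within a gene were thus not shown to mark kinase genes.

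**Figure D2:**
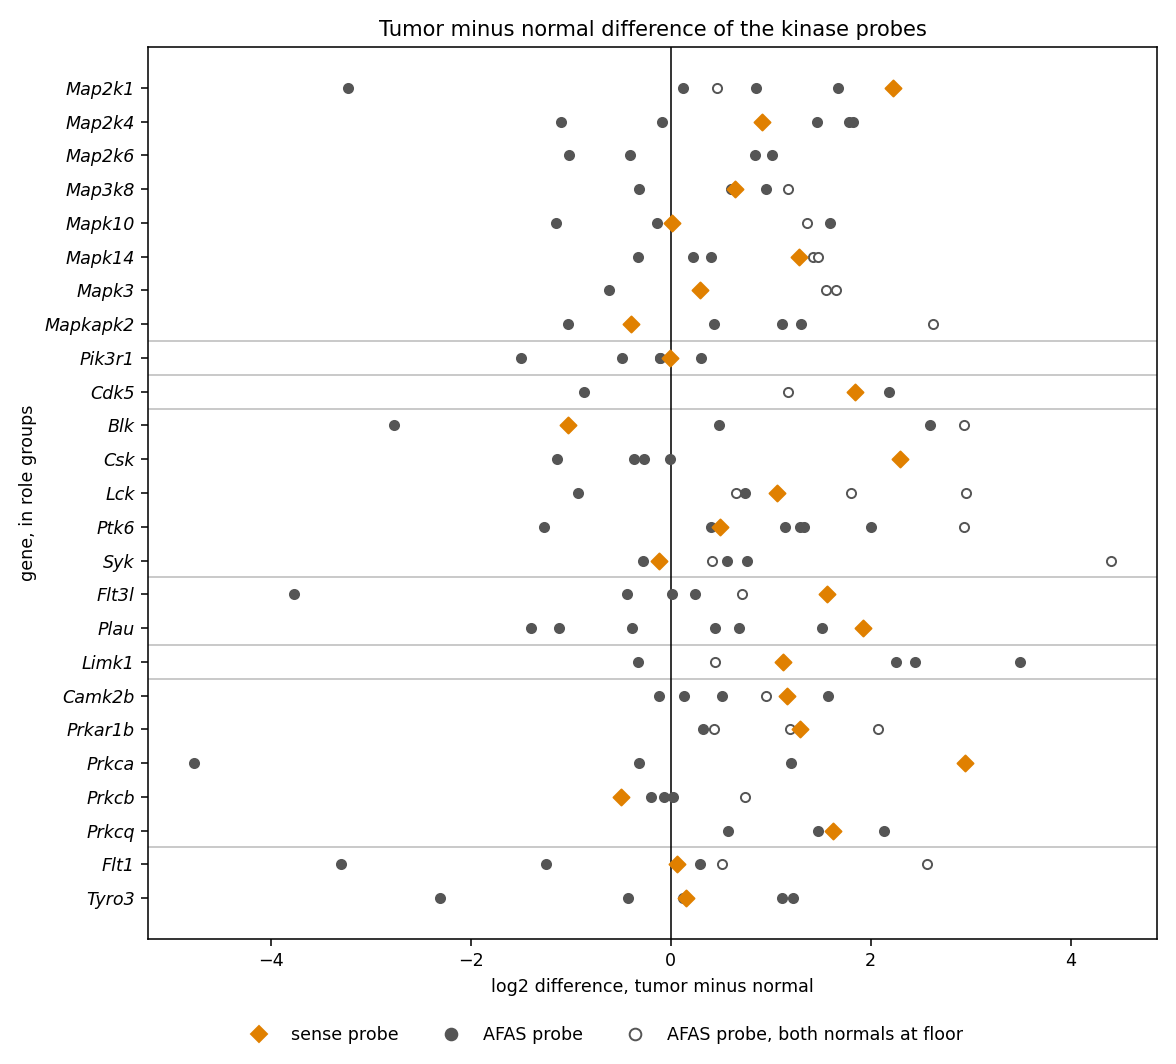
Tumor minus normal difference in log2 signal of the probes of 25 kinase genes, by gene in role groups, for sense probes and for AFAS probes; open points are AFAS probes at the floor in each normal gland. The AFAS differences run from −4.77 for Prkca to 4.41 for Syk and the sense differences from −1.03 to 2.94.

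Among the cytoplasmic tyrosine kinases, 8 of 29 AFAS probes were higher and 1 lower at an unadjusted p under 0.05, beside 13.0% and 3.26% of all AFAS probes. AFAS probe 2 of Syk gave 164, 75.1, 36.4 and 282 in tumors and stayed at the floor in each normal gland. Its difference of 4.41 ± 0.85 (adjusted p = 0.120 by limma) was set by that floor and was 2.41 with a floor of 20. AFAS probe 2 of Blk, whose sequence is given above, gave 57.5, 33.8, 24.8 and 44.6 in tumors and the floor in both normal glands (2.94 ± 0.46, and 0.94 with a floor of 20). Its adjusted p of 0.0627 by limma was the lowest of the 118.

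AFAS probe 3 of Blk ran the other way. It gave 1694, 7593, 963 and 1255 in tumors and 11137 and 16418 in normal glands. Both normal glands lay above every tumor, and tumor 2 lay nearest to them (−2.77 ± 0.88, 6.81-fold higher in normal glands, adjusted p = 0.211 by limma). The sense probe of Blk had its highest signal in tumor 2.

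AFAS probes 1 and 5 of Lck (1.80 and 2.96) had both normal glands at the floor, as had AFAS probe 5 of Ptk6 (2.93), while AFAS probe 2 of Ptk6 (2.01) did not. The 4 AFAS probes of Csk differed by −1.14 to −0.00. The probe with the smallest p gave 455, 1011, 990 and 497 in tumors and 1494 and 1536 in normal glands, without overlap (adjusted p = 0.332 by limma).

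In the MAP kinase cascade 6 of 36 AFAS probes were higher and 2 lower at an unadjusted p under 0.05, where 13.0% and 3.26% of all AFAS probes were. AFAS probe 3 of Map2k1 gave 2794, 1422, 1845 and 2310 in tumors and 794 and 514 in normal glands, without overlap (1.67 ± 0.45, adjusted p = 0.176 by limma). AFAS probe 1 of the same gene gave 389, 4725, 381 and 668 in tumors and 6502 and 9318 in normal glands. There both normal glands lay above all tumors, again with tumor 2 nearest (−3.23 ± 1.09, 9.41-fold higher in normal glands).

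Map2k4, a kinase that activates the stress kinases JNK and p38, had AFAS probes on both sides as well. AFAS probe 2 gave 135, 100.3, 130.0 and 100.2 in tumors and 30.7 and 34.7 in normal glands (1.82, adjusted p = 0.124 by limma). AFAS probe 3 gave 67.9, 73.8, 89.2 and 123 in tumors and 162 and 210.0 in normal glands (−1.09 ± 0.42, adjusted p = 0.266 by limma). Neither pair of groups overlapped. AFAS probe 4 of Map2k4 (1.46) was also higher at an unadjusted p under 0.05. Map3k8, an upstream kinase of the cascade, had 1 probe higher at an unadjusted p under 0.05 (AFAS probe 4, 0.95), and Mapkapk2, a kinase activated by p38, had AFAS probes 3 and 5 (1.11 and 2.63), the second at the floor in each normal gland and at 0.77 with a floor of 20. The AFAS probes of Map2k6, Mapk3, Mapk10 and Mapk14 lay between −1.15 and 1.66 and none reached that p.

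Among the calcium, lipid and cyclic AMP kinases 4 of 19 AFAS probes were higher and 1 lower at an unadjusted p under 0.05, against 13.0% and 3.26% over all AFAS probes. AFAS probe 1 of Prkca gave 39.2, 184, 9.84 and 8.51 in tumors and 665 and 868 in normal glands. It was the most negative of the kinase AFAS probes, with both normal glands above all tumors and tumor 2 nearest (−4.77 ± 1.29, adjusted p = 0.176 by limma). The scanner software called 2 of the 4 tumors well above background, and with a floor of 20 the difference was −4.20. AFAS probes 2 and 3 of Prkca differed by −0.31 and 1.20, neither at an unadjusted p under 0.05. For AFAS probe 3 every tumor lay above both normal glands. AFAS probe 1 of Prkcq gave 176, 106, 158 and 142 in tumors and 40.9 and 26.1 in normal glands, without overlap and above the floor throughout (2.13 ± 0.42, adjusted p = 0.120 by limma). AFAS probe 3 of Prkcq (1.48), probe 5 of Camk2b (1.57) and probe 3 of Prkar1b (2.07) were the others, the last with both normal glands at the floor. Prkcb probes lay between −0.20 and 0.74.

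Limk1 had 3 of 5 AFAS probes higher at an unadjusted p under 0.05, beside 13.0% of all AFAS probes. Its AFAS probe 5 gave 85.2, 203, 24.7 and 453 in tumors and 21.9 and the floor in normal glands, with tumor 3 just above normal gland 1 (3.49 ± 1.24, adjusted p = 0.259 by limma). Its AFAS probes 1 and 4 also had 1 normal gland at the floor each and differed by 2.25 and 2.44. With a floor of 20 probes 1, 4 and 5 differed by 1.25, 1.44 and 2.49. The AFAS probes of Cdk5 differed by −0.87 to 2.18 and those of Pik3r1 by −1.50 to 0.30, with none at that p.

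In the receptor-type kinase Flt1, AFAS probe 2 gave 20, 33.6, 21.2 and 53.6 in tumors and the floor in both normal glands (2.56, adjusted p = 0.124 by limma, and 0.56 with a floor of 20). AFAS probe 5 gave 1206, 2950, 168 and 293 in tumors and 5393 and 7488 in normal glands (−3.30 ± 1.19, 9.82-fold higher in normal glands, adjusted p = 0.259 by limma). The 2 probes, both printed above, thus lay on opposite sides of 0. The AFAS probes of Tyro3 differed by −2.31 to 1.22, none at an unadjusted p under 0.05.

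AFAS probe 2 of Flt3l gave 128, 675, 35.9 and 141 in tumors and 1818 and 2142 in normal glands. Both normal glands lay above all tumors, with tumor 2 nearest (−3.77 ± 1.09, 13.6-fold higher in normal glands, adjusted p = 0.193 by limma). AFAS probe 4 shares 43 of its 60 bases, in capitals above, and gave 16.5, 5, 11.04 and 5 in tumors and the floor in both normal glands. The signal in normal glands was thus seen with the probe that holds the other 17 bases of AFAS probe 2 and not with this overlapping one.

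As a check, AFAS probes 1 and 3 of Flt3l have the same 60 bases, and the ratio of their signals was 0.815 to 1.03 over the 6 arrays. For Plau, AFAS probes 1 and 4 share 53 bases and differed by −1.40 and −1.11, and AFAS probes 2 and 6 share 46 bases and differed by 0.44 and 0.69. Overlapping probes are not replicates, though the counts, shares and medians given here take each probe separately. The 6 AFAS probes of Plau ranged from −1.40 to 1.51 with none at an unadjusted p under 0.05.

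Sense and AFAS probes complementary over at least 20 bases read both strands of 1 stretch. There were 14 such pairs in 13 genes, and in 4 of them the sense difference was above 0 and the AFAS difference below it. Such pairs were not counted over the whole array, where 79.5% of all sense probes and 68.6% of all AFAS probes lay above 0. The 4 pairs were thus not shown to mark kinase genes. Flt3l enters with AFAS probes 1 and 3, which have the same 60 bases. For Csk the whole 60 bases are complementary, and the AFAS probe gave 185, 404, 218 and 210 in tumors and 242 and 353 in normal glands. Its groups overlapped (−0.27) while the sense probe rose (2.29). For Lck, whose pair is printed above, the AFAS probe gave 46.8, 156, 47.6 and 50 in tumors and 99.9 and 151 in normal glands, with tumor 2 the highest array (−0.93), beside 1.06 on the sense strand.

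The pair of Cdk5 shares 59 bases, with 1.84 on the sense strand and −0.87 on the antisense strand. The AFAS probe of this pair gave 10.5 to 22.5 in tumors, with 1 of 4 called well above background, and 25.8 and 26.2 in normal glands, and differed by −0.34 with a floor of 20. The pair of Mapk3 shares 59 bases, with 0.29 and −0.62. In the opposite order, Blk shares 47 bases, with −1.03 on the sense strand and 2.59 on the antisense strand, and Mapkapk2 57, with −0.40 and 1.30. The AFAS value of Blk was 1.69 with a floor of 20, since 1 normal gland was at the floor. That of Mapkapk2 had tumor 3 at 15550 and the other tumors at 1160 to 1832, and it was 0.47 without tumor 3. None of the 14 AFAS probes and, of the sense probes, only that of Csk was called. The differences between the strands of single pairs were not tested.

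**Figure D3:**
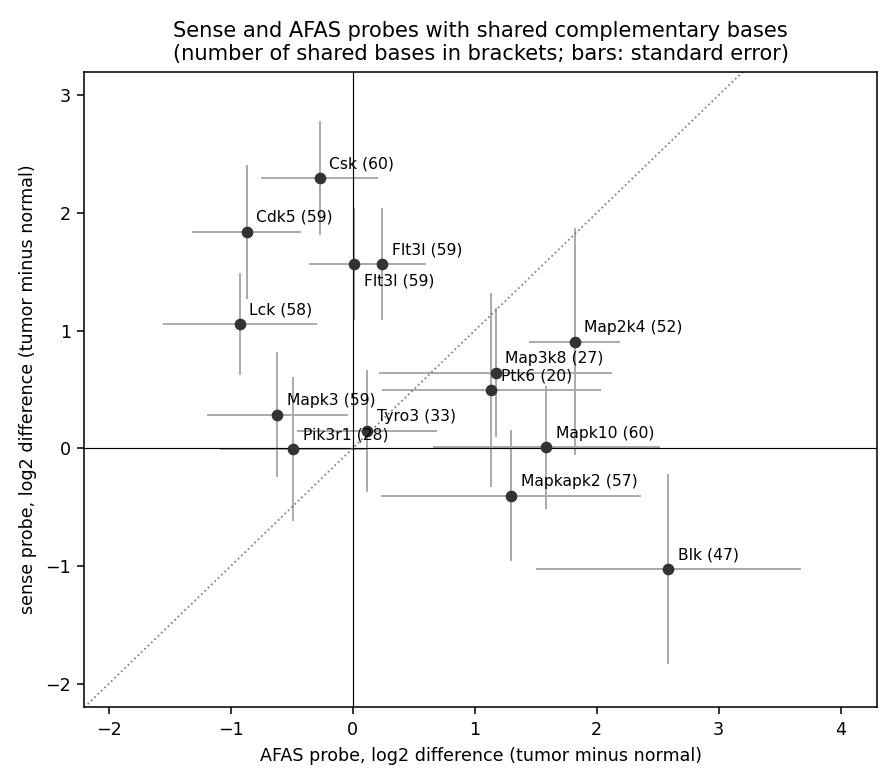
Tumor minus normal difference in log2 signal of the AFAS probe (x) and of the sense probe (y) for the 14 pairs of probes complementary over at least 20 bases, with standard errors as bars the gene and the number of shared bases beside each point, and a dotted line of equal differences. Csk, Cdk5, Lck and Mapk3 lie in the upper left, with the sense strand above 0 and the antisense strand below it, and Blk and Mapkapk2 in the lower right.

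Per gene, the mean log2 signal of the AFAS probes was subtracted from the sense log2 signal on each array, which cancels any constant of an array. Of 25 kinase genes 1 (4.00%), Prkca, was called higher in tumors and 0 lower by limma, where 2.76% and 0.251% of the 398 genes with both strands were called. At an unadjusted p under 0.05, 5 (20%) were higher, namely Csk, Flt3l, Map2k1, Plau and Prkca, and 0 lower, beside 22.9% and 3.52% of all genes. The median was 0.21 over the kinase genes and 0.37 over all genes.

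For Prkca the log2 sense minus AFAS value was −2.18, −3.88, −1.66 and −1.48 in tumors and −6.52 and −6.55 in normal glands. The groups did not overlap (4.23 ± 0.78, adjusted p = 0.00869 by limma). The sense probe at the floor in normal glands and AFAS probe 1 both enter this value, as do AFAS probes 2 and 3 (−0.31 and 1.20). With a floor of 20 the difference was 2.04 with an adjusted p of 0.0713 by limma. That sense probe was linked to Prkca by place alone and its strand was not checked. Of its bases 18.3% are G or C, beside a mean of 44.3% over all sense probes. Without tumor 1 the adjusted p was 0.0635 and without normal gland 2 it was 0.0766.

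For Csk the values were 3.27, 2.20, 2.93 and 4.19 in tumors and 0.58 and 0.23 in normal glands. All tumors lay above both normal glands (2.74, adjusted p = 0.0564 by limma). With a floor of 20, which does not touch the signals of Csk, the adjusted p was 0.0334. Map2k1 (2.25), Flt3l (2.21) and Plau (1.96) had adjusted p of 0.0724, 0.0746 and 0.119. The most negative were Blk (−1.84 ± 0.86), Mapkapk2 (−1.29 ± 0.69) and Syk (−1.28 ± 0.67), none called.

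An order of arrays, described after their values were seen, was shared by 5 AFAS probes: both normal glands above tumor 2, and tumor 2 at least 2 times each of the other tumors. They were Blk AFAS 3, Flt1 AFAS 5, Flt3l AFAS 2, Map2k1 AFAS 1 and Prkca AFAS 1, the 5 most negative of the kinase AFAS probes. They made up 5 of 118 kinase AFAS probes (4.24%), and 21 of 1750 AFAS probes (1.20%) and 0 of 404 sense probes had this order. The order was described from the values of these 5 probes, which are among the 21. The shares therefore cannot show that it marks kinase genes. The 6 AFAS probes lower at an unadjusted p under 0.05 were these 5 and Map2k4 AFAS 3, which did not have this order. No 2 of the 6 shared a stretch of over 7 bases on the same strand. Why the 5 probes shared an order was not tested. No test was run on this order.

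**Figure D4:**
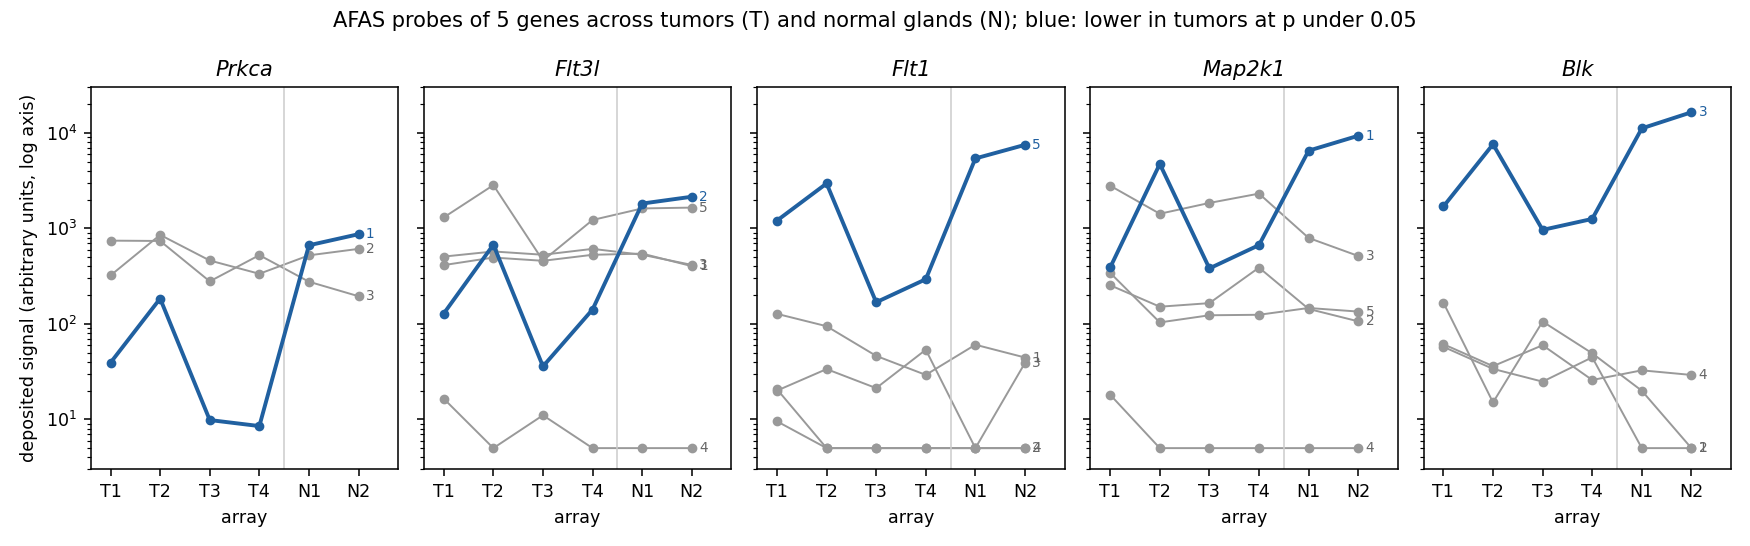
Signal on each array (log axis, arbitrary units) of all AFAS probes of 5 genes; each line joins the signals of 1 probe over 4 tumors and 2 normal glands and stands for no order in time. The blue lines Blk AFAS 3, Flt1 AFAS 5, Flt3l AFAS 2, Map2k1 AFAS 1 and Prkca AFAS 1 are highest in the normal glands and next in tumor 2.

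In the tumors, for which detection flags were used, the scanner software called 91.9% ± 5.73 (SD, n = 4) of kinase AFAS probes detected, beside 90.0% ± 6.36 of all AFAS probes. For kinase sense probes the share was 98.0% ± 2.31, beside 98.4% ± 0.937 of all. A signal of at least 100 was reached by 42.2% ± 4.29 of kinase AFAS probes in tumors and by 39.8% and 40.7% in the normal glands. Over all AFAS probes the shares were 40.8% ± 5.24 in tumors and 39.6% and 37.1% in the normal glands. For kinase sense probes they were 81.0% ± 2.00 in tumors and 84.0% and 80.0% in the normal glands. Over all sense probes they were 80.4% ± 4.09 in tumors and 74.8% and 70.3% in the normal glands.

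Genes that act with kinases, from a list of partners and substrates, had 19 sense probes, of which 4 rose and 0 fell by limma, with 9 higher and 0 lower at an unadjusted p under 0.05. Of all sense probes 14.4% rose and 36.4% were higher at that p. Those called were Fos (3.68, adjusted p = 0.0215), a transcription factor subunit that MAP kinases act on, Ptpn11 (2.33), the phosphatase SHP2, Crk (2.21), an adaptor, and Rras (1.97), a small GTPase. The median over the 19 was 1.28. Of 3 kinase inhibitor proteins Cdkn1b, also called p27, rose (3.01).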

How the data were processed

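Intensities are 1-colour Cy3 signals from a custom 60-mer Agilent array. Per the labels and file headers the authors labelled total RNA from random primers and read the slides with Agilent Feature Extraction 9.1.3.1. The intensity table the authors deposited holds all 6 arrays, is scaled with 1 factor per array and has a floor of 5. Its entries bear no probe names. They were named by matching the 4 tumor columns to the scanner files' processed signals times 1 constant per array, which tied 2154 of 2156 entries. Only scanner files of tumors were used; 39878 spots there carry no name or sequence here. Sense probes were linked to a gene by accession (17 members) or by an adjacent place in the table (8, among them Camk2b, Cdk5, Flt1, Map2k1, Prkca, Prkcb and Prkcq), for which the strand was checked by complementary sequence for Cdk5 alone.

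Tumor and normal arrays were compared on the log2 scale (R 4.3.3, limma 3.58.1, functions lmFit and eBayes, two-sided, Benjamini-Hochberg over all probes of a strand, or over all genes for the sense minus AFAS value); tables were made with Python 3.11.15, pandas 2.3.3, numpy 2.4.6 and scipy 1.17.1. The exact permutation test covers 15 groupings of the arrays. The fit was tested on simulated data. Precision is limited by the number of arrays. The lowest tumor signal that the scanner called well above background was 17.4 to 24.5 per array. Groups come from the sample names.

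Genes named with full values by rule are those called and the 3 smallest p per strand and direction and in the strand contrast. The rule also takes the largest difference per role group on each strand, and Csk with its Src family targets. Outside this rule, full values are given for probes of Mapk14, Prkar1b and Map2k4 whose groups did not overlap. Other members are mostly given by range or by their difference. The values of 1 member are not reported here, though it is kept in counts, medians and fits. Members, role lists and marker lists were chosen with earlier results of these data known. Alternatives were other centrings (75th percentile, median, equal mean, quantile), a floor of 20, a filter at a signal of 100, trend and robust eBayes, adjustment over both strands, the methods' t-test, a replicate block and each array left out. Linking by accession alone was added after the data were seen. Detection flags came from the scanner files, with normexp (offset 50) as an alternative.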

Additional observations from a re-analysis of the deposited data

Results flagged for a closer look

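Within the 4 tumors, 1 array stood far from the other 3 for 2 of the 37 groups of values looked at. These came from probes named here, and chance gives about 5% of groups. AFAS probe 5 of Map3k8 gave 26.9 in tumor 1, with the other tumors and both normal glands at the floor of 5. Its flag was fixed by that floor, so the 5% does not apply to it. AFAS probe 4 of Flt1 (20.7) and AFAS probe 5 of Syk (15.6) also lay above the floor in tumor 1 alone. On tumor 1 0.789% of all signals were at the floor, against 11.6% to 12.9% on the other tumor arrays. AFAS probe 2 of Prkcq gave 2228 in tumor 3 and 93.7 to 152 in the other tumors.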

How the results depend on the processing

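With 4 tumors and 2 normal glands, calls hang on single arrays. Of the values of 38 probes and genes, 475 recomputed ones kept direction and side of the threshold, 41 lost the call, 12 gained one and 22 changed sign; the causes were not tested.

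The number of kinase sense probes called higher (4) was 1 after 75th percentile or median centring, 0 after quantile normalization, 1 when adjusted over both strands and 2 with links by accession only (chosen after the data were seen). The methods' t-test gave 9 unadjusted on log2 signals and 6 on linear signals, and 1 and 0 after Benjamini-Hochberg. With an array left out it was 0 to 5.

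The number of genes with an AFAS probe higher (0) was 1 adjusted over both strands, 6 and 12 by the methods' t-test unadjusted on linear and log2 signals, and 0 to 1 with an array left out (1 without tumor 1). The number of genes with an AFAS probe lower (0) was 9 and 3 by the same t-tests and 0 to 1 with an array left out (1 without tumor 2).

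The number of genes higher in the sense minus AFAS value (1) was 2 after quantile normalization or with trend and robust eBayes, 3 with a floor of 20, 4 and 0 by the t-test on log2 signals unadjusted and adjusted, 0 with links by accession only, and 0 to 4 with an array left out (0 without tumor 1 or normal gland 2, 4 without tumor 2). The number lower (0) was 1 by the unadjusted t-test.

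Whether the replicate numbers in the sample names pair the samples is not known. Deviations of same-numbered arrays correlated at 0.02 and −0.02 over sense probes and at −0.01 and 0.06 over AFAS probes. These correlations cannot decide whether same-numbered samples belong together, since the normal glands are too few. With the replicate block 0 sense probes and 0 genes in the sense minus AFAS value were called; the sense difference was −0.30 for Flt1, 0.13 for Mapkapk2, 0.23 for Pik3r1, 0.25 for Prkcb and 0.41 for Syk.

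The sense median (0.91) was 0.51 and 0.64 after 75th percentile and median centring, 0.18 after quantile normalization, 0.64 with a floor of 20 and 0.31 to 1.04 with an array left out (0.31 without tumor 1). The AFAS median (0.47) was −0.11 after quantile normalization and −0.0044 over probes with a mean signal of at least 100.

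The detected share of AFAS probes (91.9%) was 78.6% by the flag for well above background, 42.2% at a signal of at least 100 and 45.8% with normexp; that of sense probes (98.0%) was 81.0% and 83.0% by the last 2.

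Sense differences near 0 changed sign: after 75th percentile centring, median centring and quantile normalization they were −0.33, −0.21 and −0.38 for Flt1 and −0.25, −0.12 and −0.13 for Tyro3. Rescaled to the same mean, Pik3r1 was 0.013. AFAS probe 3 of Prkcb was −0.20 after quantile normalization. With an array left out the range was −0.16 to 0.21 for Flt1, −0.23 to 0.37 for Pik3r1, −0.42 to 0.42 for Syk and −0.20 to 0.50 for Tyro3. A slide block was not run, since no slide was known here for either normal gland.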

Other observations

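Of the kinase probes, 5 AFAS probes and 0 sense probes gave a signal on 1 array at least 5 times that on every other array, and 4 of these arrays were tumor 3. There AFAS probe 3 of Map3k8 gave 3075 against 116 to 283 on the other arrays, AFAS probe 1 of Mapkapk2 gave 15550 against 1072 to 1832, AFAS probe 2 of Prkcq gave 2228 against 93.7 to 226, and AFAS probe 3 of Ptk6 gave 1195 against 126 to 231. The fifth is AFAS probe 5 of Map3k8 in tumor 1, given above, whose ratio is to the floor. These values were chosen after they were seen and no test was run on them. How many probes of the whole array behaved so was not counted, so nothing here is particular to kinase probes.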
